A study of Mus musculus with 10 samples.

Results

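The genes described here are 8 mRNAs that have been reported as direct targets of the miR-290 and miR-302 families in mouse embryonic stem cells: Tgfbr2, Rhoc, Casp2, Ei24, Mbd2, Arid4a, Arid4b and Akt1. They were taken by symbol from the 51467 genes of the count table, and all 8 were found. Their mRNA levels were measured by 3′-end sequencing (QuantSeq), whose reads start close to the poly(A) tail, in 10 libraries of cultured embryonic stem cells grown in serum with LIF and 2i, the inhibitors PD0325901 and CHIR99021. Wild-type cells (WT, the V6.5 line) gave 3 libraries, and cells of a DGCR8 knockout line made in earlier work (DGCR8 KO) gave 3. Cells knocked out for DDX6 by CRISPR in V6.5 (DDX6 KO) gave 4 libraries, 2 from each of 2 clones, 1 carrying an insertion and the other a deletion. Each genotype thus rests on 1 line or on 2 clones, and the labels do not say whether libraries of a line came from separate cultures, so p-values measure the spread between libraries, which may be technical. The question was whether the mRNA levels of these targets were raised to the same extent without miRNAs (DGCR8 KO) and without DDX6. Translation was not measured in these libraries. From other libraries, the study reports that both knockouts raised translation of such targets as a group to a similar degree. In DDX6 KO it found the stability of their mRNAs little changed.

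A miRNA guides Argonaute proteins to mRNAs whose 3′ UTR pairs with its seed, bases 2 to 8 counted from its 5′ end, and lowers their translation and stability. DGCR8 binds primary miRNA transcripts and lets its partner Drosha release the hairpins that most miRNAs come from, while DDX6 is an RNA helicase of P-bodies that the miRNA effector complex recruits through the CCR4-NOT deadenylase. The study describes miRNAs that share the seed letters AAGUGC as the predominant part of the miRNA pool of embryonic stem cells. In its reporter line, naive embryonic stem cells were positive for the miR-290 reporter and negative for the miR-302 reporter. The level of each family in the cells used here was not tested. The miR-290 and miR-302 families are known for promoting rapid cycling and for limiting differentiation and cell death.

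The 3p miRNAs of both families whose seed starts with the letters AAGUGC, and miR-302c-3p with the same letters shifted, are shown because this seed is what ties the 8 genes together. Sequences are from RefSeq (GRCm38.p6), with the seed in capitals. In 7 of them bases 2 to 7 read AAGUGC, which was found at this position in 8 of the 1679 mature mouse miRNAs of the same table. The first 5 share the seed AAGUGCU.
miR-291a-3p: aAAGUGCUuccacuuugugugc
miR-294-3p: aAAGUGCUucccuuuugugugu
miR-295-3p: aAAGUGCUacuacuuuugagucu
miR-302b-3p: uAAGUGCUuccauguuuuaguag
miR-302d-3p: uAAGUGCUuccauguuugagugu
miR-290a-3p: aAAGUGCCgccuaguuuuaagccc
miR-291b-3p: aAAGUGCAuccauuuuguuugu
miR-302c-3p: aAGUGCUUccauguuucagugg
In miR-290a-3p and miR-291b-3p only the eighth base differs. The annotated 5′ end of miR-302c-3p lies 1 base further into the same letters, so that its seed is AGUGCUU. Other 3p members have other seeds and are not shown: miR-290b-3p (AGUGCCC), miR-292b-3p (AGAGCCC) and miR-293-3p (GUGCCGC). The families also include miR-292a-3p and miR-302a-3p.

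The longest annotated 3′ UTR of each gene (GENCODE M21, GRCm38) was searched on the transcript's strand for the 7-base matches AGCACTT and GCACTTA and for the 8-base match AGCACTTA, which contains both. All 8 genes held at least 1 such match, against 21.5% of the 10962 tested genes with an annotated 3′ UTR. This is no independent finding, since the genes were reported as targets of these miRNAs. Tgfbr2, Casp2 and Arid4b held 3 matches each, Arid4a held 2, and Rhoc, Ei24, Mbd2 and Akt1 held 1. An 8-base match occurred in Tgfbr2 and Mbd2, and in 3.74% of tested genes. UTR length matters for such counts: among genes with a 3′ UTR within 20% of the length of that of Tgfbr2 (6085 bases), 66.5% held a match, against 6.29% around the length of Rhoc (416 bases). With 3 matches, Casp2 and Arid4b stood among 0.645% and 0.41% of the genes of like UTR length that held at least as many, whereas this share was 10% for Tgfbr2.

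For 7 of the genes a match is shown in its surroundings, 30 bases of the mRNA strand with the match in capitals, so that the pairing with the capitals above can be read directly. All lie within a 3′ UTR exon, and coordinates are of GRCm38.
Tgfbr2 (8-base match, chr9:116087760-116087789, minus strand): tcaaaacctaaAGCACTTAttttcaatcta
Rhoc (chr3:104794320-104794349, plus strand): tattacacaccAGCACTTtatatatttttg
Casp2 (chr6:42281547-42281576, plus strand): tataacctagaAGCACTTgtctctgctctt
Ei24 (chr9:36779877-36779906, minus strand): gctgtttttttAGCACTTgccagctcctgt
Arid4a (chr12:71098114-71098143, plus strand): aattttgtggaAGCACTTgctatgtagaac
Arid4b (chr13:14197739-14197768, plus strand): ggacttgctagAGCACTTtgcacttaatgg
Akt1 (chr12:112653984-112654013, minus strand): gcccttctcctAGCACTTgtccttttagat
The Arid4b stretch lies near the start of the UTR and holds a second match, GCACTTA, that begins 1 base after the first ends. The Mbd2 match lies 289 bases after the stop codon in a 3′ UTR of 480 bases.

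**Figure D1:**
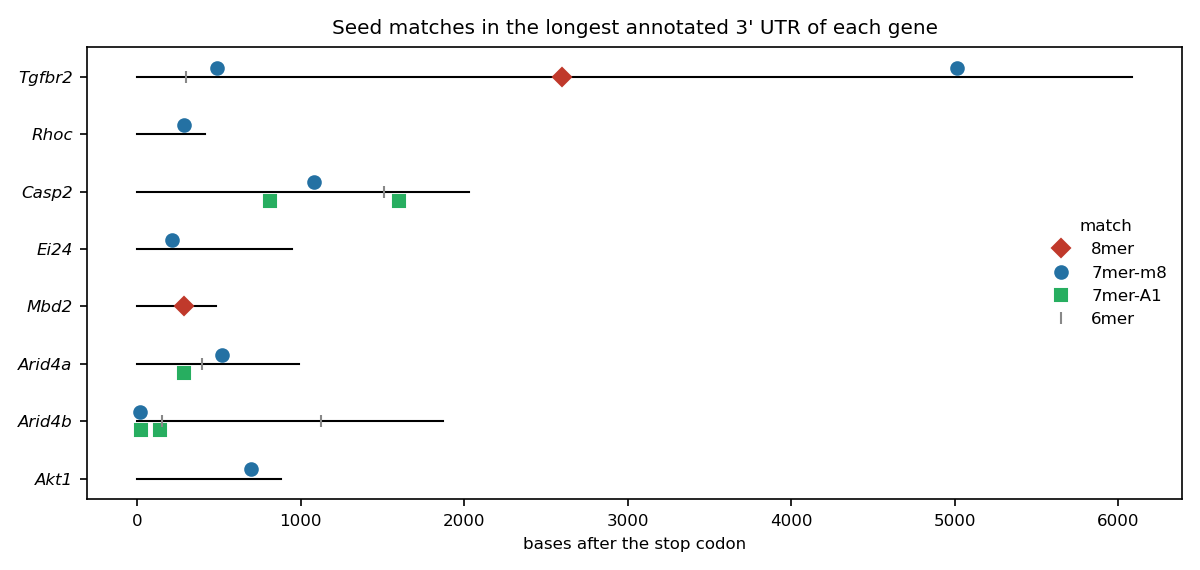
Positions of seed matches along the 3′ UTR of the 8 genes, in bases after the stop codon. Lines span the longest annotated 3′ UTR, and symbols give the match: 8mer is AGCACTTA, 7mer-m8 AGCACTT, 7mer-A1 GCACTTA and 6mer GCACTT alone, drawn slightly above or below the line where needed. The first 2 matches of Arid4b start within 25 bases of the stop codon, while those of Tgfbr2 are spread over 6085 bases.

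The 10 libraries held 2131156 to 4745083 counts over genes, so that 3 counts, taken as the floor, stood for 0.632 to 1.41 CPM, a gene's count scaled to a common library total. Levels below are CPM after TMM scaling, which corrects library totals for a few strongly changed genes. Dgcr8 was at 50.1 to 65.4 CPM in WT and at 9.11 to 15.4 CPM in DGCR8 KO, a log2 difference of -2.34 (SE 0.25, limma adjusted p = 9.45e-07). Ddx6 was at 502 to 583 CPM in WT, 134 and 149 CPM in clone 1 and 25.6 and 38.8 CPM in clone 2. Both went with the labels, although reads from the 3′ end do not cover the edited exon. The 7 pluripotency markers were detected in every group, with summed levels of 3557 to 3933 CPM in WT, 3122 to 3537 in DGCR8 KO and 3652 to 3964 in DDX6 KO. Single markers moved in both directions under these sums. In WT, DGCR8 KO and DDX6 KO, mean CPM was 566, 449 and 864 for Nanog, 559, 797 and 508 for Sox2, and 1036, 793 and 735 for Tfcp2l1. Summed levels of 6 primitive endoderm markers stayed between 2.37 and 6.08 CPM. Those of 5 trophoblast markers were 83.1 to 131 CPM in WT, 154 to 192 in DGCR8 KO and 59 to 113 in DDX6 KO, mostly Tfap2c, with Elf5 at 0 in all libraries and Krt18 at 4.35 CPM on average in WT and 11.6 in DDX6 KO. Those of 5 epiblast or mesoderm markers were 38.1 to 43 CPM, 49.3 to 63.5 and 15 to 32.9, with Fgf5 at 0 in all libraries. Within that list Otx2 went from 35.6 CPM on average in WT to 7.72 in DDX6 KO, and Kdr from 3.01 to 12.7. The part of these other cell types in the values below was not tested, and in bulk RNA fewer cells of a type cannot be told apart from less RNA per cell.

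In DGCR8 KO, 6 of the 8 targets were higher than in WT at an adjusted p under 0.05 (Rhoc, Casp2, Ei24, Mbd2, Arid4a and Arid4b), against 19.9% of the 11683 genes tested. None was lower in the limma fit, against 16.5% of all genes, and none of the 8 had a negative fold change at an unadjusted p under 0.05 or an adjusted p under 0.05 in edgeR or DESeq2. With the replicate number as a block, 7 were higher, Tgfbr2 being added. The shares of all genes given here are from the fit without this block. In DDX6 KO, 4 of the 8 were higher (Tgfbr2, Rhoc, Arid4a and Arid4b), against 17.9% of all genes, and Ei24 was lower, against 16.6%. Tgfbr2 entered the test through its high level in the DDX6 KO libraries, so its call there is no support: of the other 7 targets, 3 were higher in DDX6 KO. Calls with a log2 change beyond 1 were 3 higher targets in DGCR8 KO, where 8.93% of all genes were, and 2 in DDX6 KO, one of them Tgfbr2, where 7.55% were. The median log2 fold change of the 8 was 0.95 in DGCR8 KO and 0.36 in DDX6 KO, where that of all tested genes was 0.00 and 0.02. Tgfbr2, at 1.93 and 3.27, is included in these medians of the 8. Over all 2358 tested genes with a 7- or 8-base match the medians were 0.23 and 0.12, against -0.04 and 0.01 for the 8604 with none. Both comparisons share the WT libraries, so chance deviations in WT enter both alike.

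**Figure D2:**
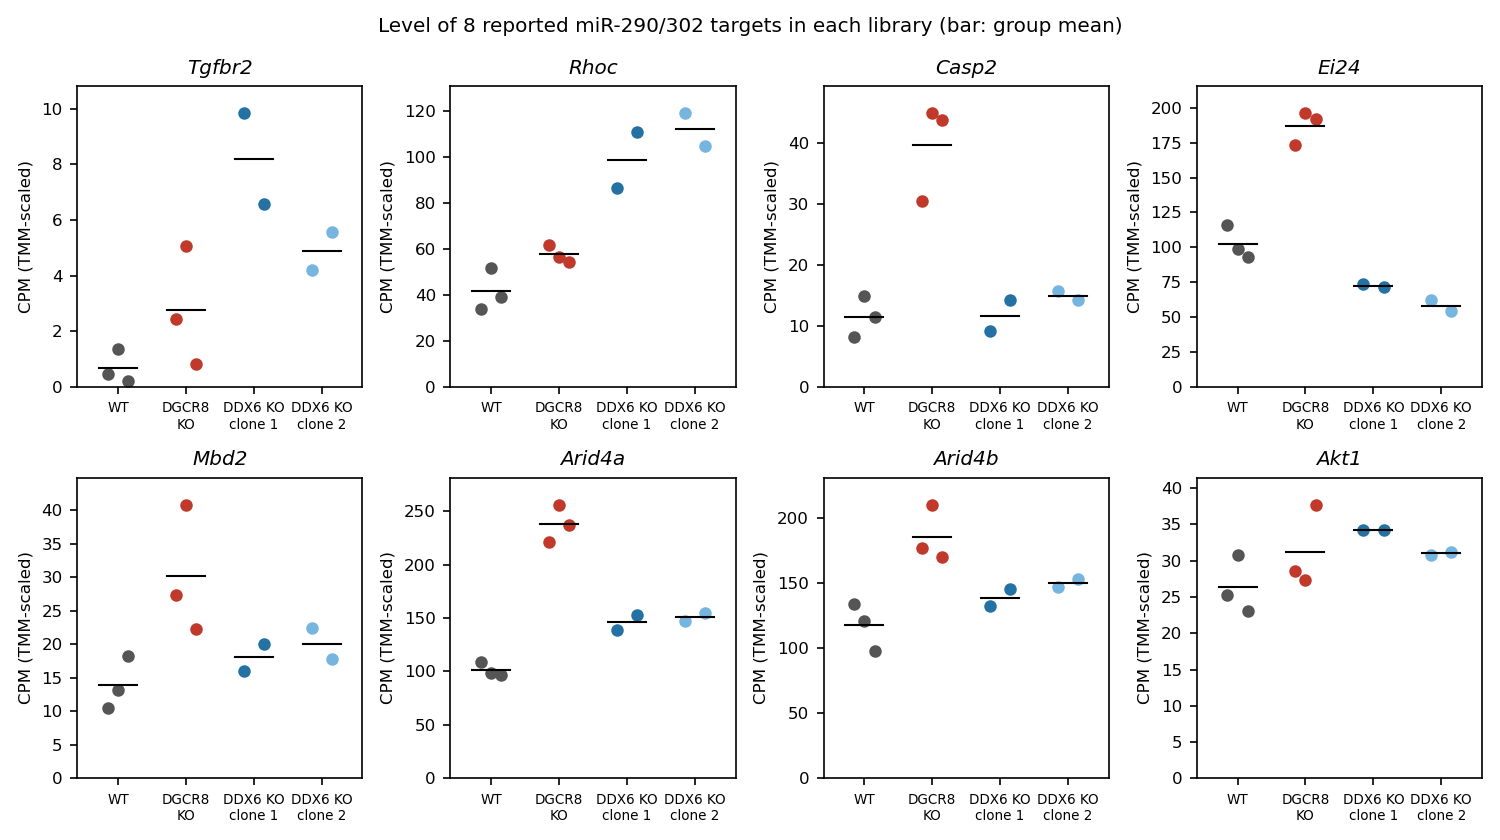
Level of each target in every library, in TMM-scaled CPM on axes that start at 0. Points are libraries (3 WT, 3 DGCR8 KO and 2 of each DDX6 KO clone) and bars are means. Casp2, Ei24 and Arid4a are highest in the 3 DGCR8 KO libraries, while Rhoc is highest in the DDX6 KO libraries.

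Tgfbr2 encodes the type II receptor of TGF-beta, the kinase that binds the ligand and activates the type I receptor. It was barely detected in WT, with 1, 4 and 1 counts (0.478, 1.36 and 0.222 CPM). DGCR8 KO libraries held 8, 15 and 2 counts (2.44, 5.06 and 0.81 CPM), and DDX6 KO libraries held 27 and 19 in clone 1 and 12 and 20 in clone 2 (9.84, 6.57, 4.2 and 5.57 CPM). All 4 DDX6 KO libraries were above all WT libraries, while the DGCR8 KO and WT libraries overlapped. The gene reached 3 CPM, the level needed in 3 libraries for a gene to be tested, in 0 of 3 WT, 1 of 3 DGCR8 KO and 4 of 4 DDX6 KO libraries, so it entered the test through the group where it was high. Pooled over libraries, its level in DDX6 KO was 10.3 times that in WT (78 against 6 counts, exact 95% interval 4.51 to 28.9). In DGCR8 KO the ratio was 4.57 (25 counts, 1.83 to 13.6). These intervals cover counting error only. The fitted log2 difference was 3.27 in DDX6 KO (SE 0.72, limma adjusted p = 0.00199) and 1.93 in DGCR8 KO (SE 0.82, adjusted p = 0.0717). Without WT replicate 3, which held 1 count, these fell to 2.53 (adjusted p = 0.0315) and 1.19 (0.341). The DGCR8 KO difference passed under 4 of 19 alternatives. With the replicate number as a block it was 1.72 (adjusted p = 0.0326). This block took same-numbered libraries of all groups as paired, which was not established. The DGCR8 KO difference also passed in edgeR (0.0346), in DESeq2 (0.0328) and without DGCR8 KO replicate 3 (0.0149).

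Tgfbr2 is abundant in fibroblasts, which can serve as feeder cells for stem cells. The summed level of 7 fibroblast markers was 3.39 to 4.3 CPM in WT, 2.43 to 3.38 in DGCR8 KO and 5.25 to 9.47 in DDX6 KO, where Col1a1 gave 4.04 CPM on average. From WT to DDX6 KO, mean CPM went from 0.272 to 0.948 for Thy1, 0.222 to 0.314 for Lum and 0.529 to 0.61 for Col3a1. Col1a2 went from 0.925 to 0.869, and Dcn and Postn were at 0 in every WT and DDX6 KO library. Most of these levels lay near or under the floor. The part of feeder cells in the Tgfbr2 values was not tested. Of 11 tested genes of the TGF-beta receptor pathway, 2 were higher and 0 lower in DGCR8 KO (median log2 fold change 0.24), the ligand Tgfb2 (1.62) and the type I receptor Tgfbr1 (0.56). In DDX6 KO 4 were higher and 1 lower (median 0.11). The higher genes were Tgfb2 (1.46), the BMP receptor Bmpr2 (0.73), the activin receptor Acvr2a (0.58) and the inhibitory Smad7 (0.40). Among all genes, 19.9% were higher and 16.5% lower in DGCR8 KO, and 17.9% and 16.6% in DDX6 KO. Tgfb2 thus passed in both knockouts, and Tgfbr1 only in the DGCR8 KO comparison, being higher in DGCR8 KO than in DDX6 KO when these were compared directly (log2 0.67, limma adjusted p = 0.00704).

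Rhoc encodes a small GTPase that acts on the actin cytoskeleton and on cell motility. Its level was 33.9, 51.9 and 39 CPM in WT (71 to 176 counts), 61.8, 56.7 and 54.3 CPM in DGCR8 KO, 86.4 and 111 CPM in clone 1 and 119 and 105 CPM in clone 2. The groups were in the order WT, DGCR8 KO, DDX6 KO without overlap. The log2 difference from WT was 1.34 in DDX6 KO (SE 0.15, limma adjusted p = 3.89e-06) and 0.48 in DGCR8 KO (SE 0.17, adjusted p = 0.0332). The latter was lost without WT replicate 1 (adjusted p = 0.115), WT replicate 3 (0.132) or DGCR8 KO replicate 1 (0.116), with no filter on low counts (0.0945) and with each chromosome centred on its own median (0.104).

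Among 10 other GTPases and effectors that act on the cytoskeleton, the stress-responsive paralog Rhob was higher in both knockouts, by 1.57 on the log2 scale in DGCR8 KO and by 1.89 in DDX6 KO. In DGCR8 KO 3 of the 10 were higher and 2 lower (median 0.01), among them the kinase Rock2 at 0.82, which also has a seed match, the formin Diaph1 at 0.46 and Rhou at -0.77. In DDX6 KO 4 were higher and 1 lower (median 0.16), with Rhou at 0.43, Diaph1 at -0.35 and Rac1 at 0.33. Rhou and Diaph1 therefore had opposite signs in the 2 comparisons, each past the test. The shares of all genes were 19.9% higher and 16.5% lower in DGCR8 KO, and 17.9% and 16.6% in DDX6 KO. Rhou lies on chromosome 8, whose 644 tested genes had a median of -0.45 in DGCR8 KO.

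Casp2 encodes caspase 2, an initiator caspase activated by DNA damage and by errors of division. It was at 8.12, 14.9 and 11.5 CPM in WT (17 to 52 counts), at 30.5, 44.9 and 43.8 CPM in DGCR8 KO, at 9.11 and 14.2 CPM in clone 1 and at 15.7 and 14.2 CPM in clone 2. The 3 DGCR8 KO libraries stood above all others, whereas DDX6 KO and WT overlapped. The log2 difference from WT was 1.73 in DGCR8 KO (SE 0.25, limma adjusted p = 3.16e-05), a 3.33-fold rise, and passed under all 20 alternatives. In DDX6 KO it was 0.19 (95% interval -0.39 to 0.76, adjusted p = 0.631). Casp2 lies on chromosome 6, and the 561 tested genes of this chromosome had a median log2 difference of 0.59 in DDX6 KO (0.64 in clone 1 and 0.56 in clone 2). With each chromosome centred on its own median, Casp2 was at -0.40 in DDX6 KO (adjusted p = 0.278). The direct difference between the knockouts grew from 1.55 to 2.07.

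Ei24 encodes a p53-induced protein of the endoplasmic reticulum that has been tied to cell death and autophagy, and it was the target whose changes in the knockouts had opposite signs. It was at 116, 98.6 and 93.1 CPM in WT, at 173, 196 and 192 CPM in DGCR8 KO, at 73.6 and 71.3 CPM in clone 1 and at 61.9 and 54.3 CPM in clone 2. The groups did not overlap. Against WT the log2 difference was 0.89 in DGCR8 KO (SE 0.13, limma adjusted p = 2.8e-05) and -0.65 in DDX6 KO (SE 0.13, adjusted p = 0.00092), and both passed under all 20 alternatives. The median of its chromosome, 9, was 0.04 and -0.01.

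Of 11 tested genes among the other caspases and the p53 axis, 1 was higher and 5 lower in DGCR8 KO (median -0.38), and 0 higher and 4 lower in DDX6 KO (median -0.23). Pmaip1 (Noxa), a p53-induced inhibitor of survival proteins, was the gene that was higher in DGCR8 KO (2.49 on the log2 scale), while the effector caspase Casp6 (-1.34), the caspase 2 adaptor Cradd (-1.06) and Mdm2, which marks p53 for degradation (-0.92), were lower. In DDX6 KO the p53 gene itself, Trp53, was at -0.95, and its targets Bbc3 (Puma) and Bax were at -1.01 and -0.93, with Mdm2 at -0.43. Of all tested genes 19.9% were higher and 16.5% lower in DGCR8 KO, and 17.9% and 16.6% in DDX6 KO. None of these 11 genes had a 7- or 8-base seed match.

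Mbd2 encodes a protein that binds methylated DNA and brings the NuRD deacetylase complex to it, and lies on chromosome 18. It was at 10.5, 13.2 and 18.2 CPM in WT (22 to 82 counts), at 27.4, 40.8 and 22.3 CPM in DGCR8 KO, at 16 and 20.1 CPM in clone 1 and at 22.4 and 17.8 CPM in clone 2. DGCR8 KO was above WT in all 3 libraries, and 2 of the 4 DDX6 KO libraries were. The log2 difference was 1.02 in DGCR8 KO (SE 0.25, limma adjusted p = 0.00364) and passed under all 20 alternatives. In DDX6 KO it was 0.38 (95% interval -0.14 to 0.91, adjusted p = 0.251) and passed under none. Of 12 other genes of the MBD family and NuRD, 3 were higher and 3 lower in DGCR8 KO (median -0.03), with the methyl-DNA-binding Mbd1 at 1.08, the NuRD subunits Gatad2a and Mta1 at -0.70 each, and Gatad2b, which has 2 seed matches in its 3′ UTR, at 0.55. In DDX6 KO 3 were higher and 3 lower (median 0.02), with Mbd3 at -0.88, Gatad2b at 0.41, the histone-binding Rbbp7 at 0.39 and Mbd4 at 0.55. Mbd4 lies on chromosome 6 with its median of 0.59, and Gatad2a on chromosome 8. For all tested genes the shares were 19.9% higher and 16.5% lower in DGCR8 KO, and 17.9% and 16.6% in DDX6 KO.

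Arid4a and Arid4b encode related DNA-binding subunits of the SIN3 histone deacetylase complex, of which the first was found as a partner of the retinoblastoma protein. Arid4a was at 109, 98.6 and 96.7 CPM in WT (228 to 436 counts), at 221, 256 and 237 CPM in DGCR8 KO, at 139 and 153 CPM in clone 1 and at 147 and 155 CPM in clone 2. The groups stood in the order WT, DDX6 KO, DGCR8 KO with no overlap. The log2 difference from WT was 1.24 in DGCR8 KO (SE 0.11, limma adjusted p = 1.38e-07) and 0.56 in DDX6 KO (SE 0.11, adjusted p = 0.000522), which is 2.36-fold and 1.48-fold, and both passed under all 20 alternatives. Arid4a was thus the target with the smallest adjusted p in DGCR8 KO.

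Arid4b had the same order of means with smaller steps. It was at 134, 121 and 97.8 CPM in WT, at 177, 210 and 170 CPM in DGCR8 KO, at 132 and 145 CPM in clone 1 and at 147 and 153 CPM in clone 2. All DGCR8 KO libraries were above the others, while 1 library of clone 1 lay within the WT range. The log2 difference was 0.69 in DGCR8 KO (SE 0.13, limma adjusted p = 0.000372), past the test under all 20 alternatives, and 0.33 in DDX6 KO (SE 0.12, adjusted p = 0.0448). The latter passed under 9 of 20: it was lost with the replicate block (0.123), in edgeR (0.0617), DESeq2 (0.0718) and limma-trend (0.0595), with no filter on low counts (0.0664), and without WT replicate 2 (0.0644), WT replicate 3 (0.338), DGCR8 KO replicate 1 (0.0508), the second library of clone 1 (0.0745) or either library of clone 2 (0.0844 and 0.0961). Of 11 other subunits and partners of the SIN3 complex, 2 were higher and 2 lower in DGCR8 KO (median -0.13), with the retinoblastoma gene Rb1 at 0.97, Suds3 at 0.38, Ing2 at -0.67 and Sap30 at -0.57, the last pair lying on chromosome 8. In DDX6 KO 0 were higher and Sap30l was lower, at -0.67 (median 0.02). By comparison, 19.9% of all genes were higher and 16.5% lower in DGCR8 KO, and 17.9% and 16.6% in DDX6 KO.

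Akt1 encodes a kinase that relays PI3K signals for growth and survival. It was at 25.3, 30.8 and 23.1 CPM in WT (53 to 104 counts), at 28.6, 27.3 and 37.7 CPM in DGCR8 KO, at 34.2 and 34.3 CPM in clone 1 and at 30.8 and 31.2 CPM in clone 2. Its ranges overlapped in both comparisons with WT. The log2 difference was 0.24 in DGCR8 KO (95% interval -0.14 to 0.61, limma adjusted p = 0.318) and 0.33 in DDX6 KO (-0.02 to 0.67, adjusted p = 0.136), so that a rise of up to 0.61 or 0.67 on the log2 scale lay within the intervals. Scaled by total counts alone, the DDX6 KO difference was 0.45 (adjusted p = 0.04). Of 11 other genes of the AKT pathway, 7 were higher and 0 lower in DGCR8 KO (median 0.50), the largest being Rictor, a subunit of the mTORC2 complex that phosphorylates AKT (1.38), the transcription factor Foxo1 (0.92), the paralog Akt2 (0.78) and the PI3K catalytic subunit Pik3ca (0.69). In DDX6 KO 3 were higher and 1 lower (median -0.04). These were the AKT-activating kinase Pdpk1 (0.89), Rictor (0.77), Foxo1 (0.67) and the transcription factor Foxo3 (-0.51). Across all tested genes 19.9% were higher and 16.5% lower in DGCR8 KO, and 17.9% and 16.6% in DDX6 KO.

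**Figure D3:**
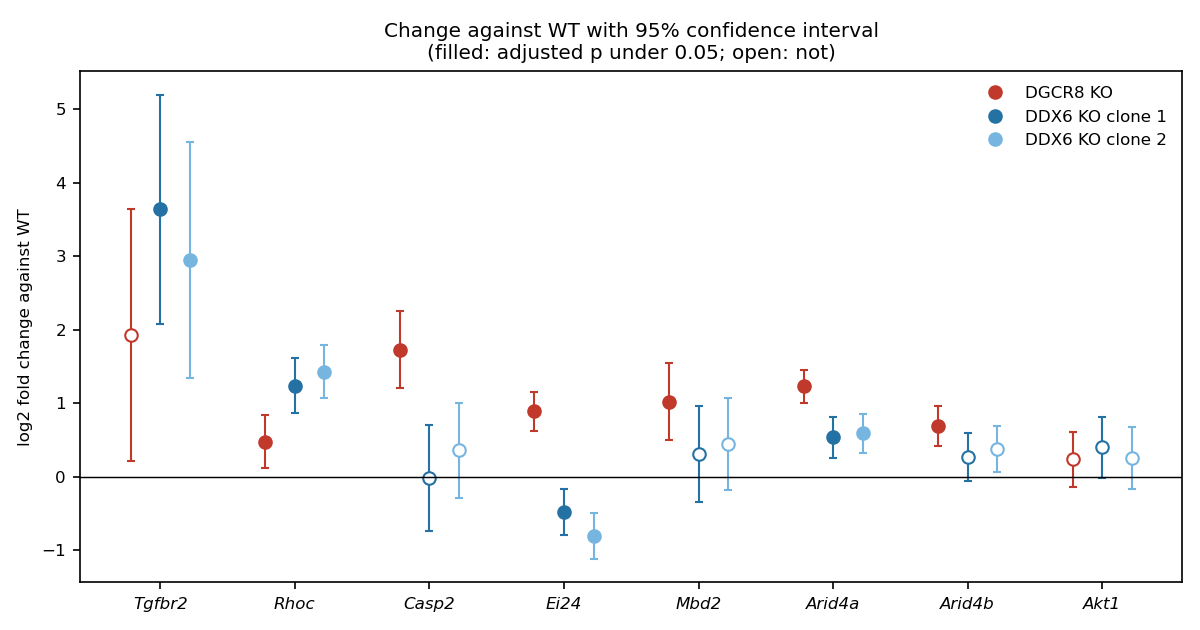
Log2 fold change of each target against WT in DGCR8 KO and in each DDX6 KO clone. Bars are 95% confidence intervals, and filled points passed an adjusted p under 0.05. Both clones lie below DGCR8 KO for Casp2, Ei24 and Arid4a and above it for Rhoc.

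The knockouts were also compared directly. This contrast does not use the WT means, although WT libraries enter the scaling, the filter and the estimate of the spread. At an adjusted p under 0.05, 5 of the 8 targets were higher in DGCR8 KO than in DDX6 KO (Casp2, Ei24, Mbd2, Arid4a and Arid4b), against 23% of all tested genes, and 2 were lower (Tgfbr2 and Rhoc), against 21%. Since Tgfbr2 was tested because of its level in DDX6 KO, Rhoc is the lower target that does not depend on the filter in this way. With a log2 change beyond 1 they were 2 higher and 1 lower (Tgfbr2), against 7.77% and 9.32% of all genes. The median over the 8, Tgfbr2 at -1.35 included, was 0.50, where that of all tested genes was 0.00. Casp2 differed by 1.55 on the log2 scale (SE 0.22, limma adjusted p = 1.96e-05), Ei24 by 1.53 (SE 0.12, adjusted p = 3.12e-08), Arid4a by 0.67 (SE 0.10, adjusted p = 2.35e-05) and Rhoc by -0.86 (SE 0.14, adjusted p = 0.000105), and these 4 passed under all 20 alternatives.

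The other 3 calls between the knockouts depended on single libraries or settings. Mbd2 differed by 0.64 (SE 0.22, limma adjusted p = 0.0226), and this was lost when scaled by total counts (0.0643), with no filter on low counts (0.0573) and without DGCR8 KO replicate 2 (0.144), the first library of clone 1 (0.0682) or the second of clone 2 (0.06). Arid4b differed by 0.36 (SE 0.12, adjusted p = 0.0179), lost when scaled by total counts (0.125) and without DGCR8 KO replicate 2 (0.0832) or the first library of clone 1 (0.0648). Tgfbr2 differed by -1.35 (SE 0.51, adjusted p = 0.0401), lost in edgeR (0.0542) and DESeq2 (0.0683), with no filter (0.0526), and without DGCR8 KO replicate 1 (0.0999) or 3 (0.19), either library of clone 1 (0.0854 and 0.0648) or the second of clone 2 (0.0508). Without DGCR8 KO replicate 3 its difference was -0.80, and with the replicate block -0.72 (0.203). For Akt1 the difference was -0.09 (95% interval -0.43 to 0.25, adjusted p = 0.689).

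**Figure D4:**
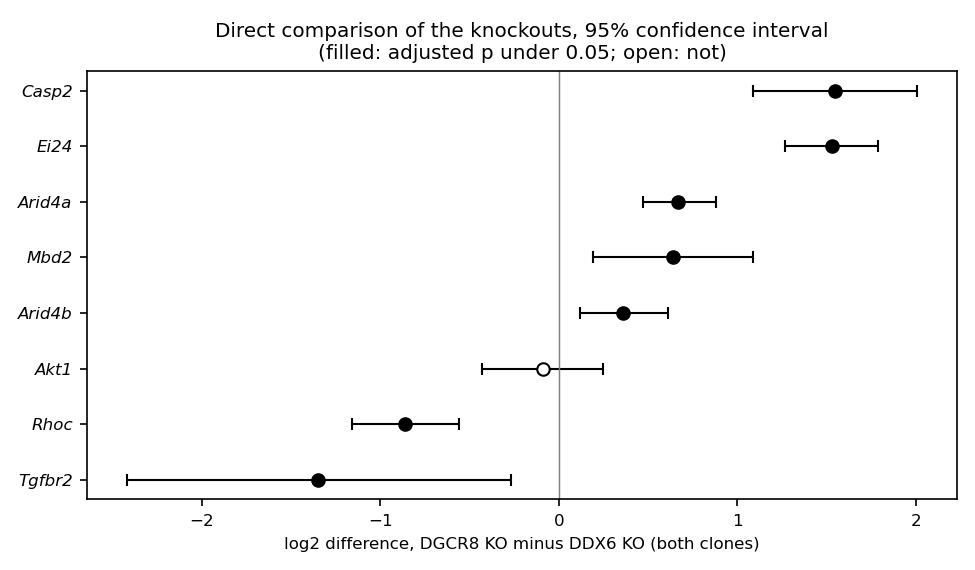
Log2 difference between DGCR8 KO and DDX6 KO for each target, with 95% confidence intervals. Positive values are higher in DGCR8 KO, and filled points passed an adjusted p under 0.05. Casp2 (1.55) and Ei24 (1.53) lie at the upper end and Rhoc (-0.86) and Tgfbr2 (-1.35) at the lower.

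Taken separately against WT, each DDX6 KO clone had the same 4 targets past the test: Tgfbr2, Rhoc and Arid4a higher and Ei24 lower. Among all tested genes 13.1% were higher and 10.7% lower in clone 1, and 13% higher and 11.6% lower in clone 2. Tgfbr2 again entered the test through DDX6 KO, which leaves Rhoc and Arid4a as the higher targets. With a log2 change beyond 1, 2 targets were higher in each clone, Tgfbr2 and Rhoc, against 6.89% of genes in clone 1 and 6.76% in clone 2. Log2 differences were 3.64 and 2.95 for Tgfbr2, 1.24 and 1.43 for Rhoc, 0.54 and 0.59 for Arid4a, and -0.48 and -0.80 for Ei24. Of these, Ei24 in clone 1 (limma adjusted p = 0.0261) was lost without WT replicate 1 (0.0762) or either library of the clone (0.112 and 0.144), with total counts (0.0831) and with no filter (0.062). Arid4a in clone 1 was lost without its second library (0.0762), and Tgfbr2 in clone 2 without WT replicate 3 (2.21, adjusted p = 0.0866) or its second library (0.0575). In clone 1 Tgfbr2 was at 2.90 without WT replicate 3 (0.0245). Arid4b was at 0.27 in clone 1 and 0.38 in clone 2 (adjusted p = 0.205 and 0.0656), and the latter passed without WT replicate 1 (0.0426) or DGCR8 KO replicate 2 (0.0405), with total counts (0.0196) and with centred chromosomes (0.0491).

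No target differed between the clones in limma, edgeR or DESeq2, and none had an unadjusted p under 0.05, while Ddx6 itself was lower in clone 2 (log2 -2.18, adjusted p = 3.1e-05). With 2 libraries a clone the intervals were wide, reaching from -1.72 to 0.33 for Tgfbr2 and from -0.68 to 0.03 for Ei24. Against clone 1 alone, 4 targets were higher in DGCR8 KO (Casp2, Ei24, Arid4a and Arid4b), against 17.5% of genes, and 2 lower (Tgfbr2 and Rhoc), against 17.3%. Tgfbr2 was again tested because of its level in DDX6 KO, so its call is no support and Rhoc is the lower target left. Against clone 2 alone, 3 were higher (Casp2, Ei24 and Arid4a), against 17.6%, and Rhoc was lower, against 16.4%. With a log2 change beyond 1 they were 2 higher and 1 lower (Tgfbr2) against clone 1, where 7.16% and 8.82% of genes were. Against clone 2 they were 2 higher (7.1%). Of these, Arid4b (adjusted p = 0.0332) was lost without DGCR8 KO replicate 1 (0.0538) or 2 (0.0885), either library of clone 1 (0.207 and 0.0886) or the first of clone 2 (0.0505), with total counts (0.13) and with no filter (0.0649). Tgfbr2 (0.0209) was lost in DESeq2 (0.0727) and without DGCR8 KO replicate 1 (0.059) or 3 (0.084) or the first library of clone 1 (0.129). Rhoc against clone 1 (0.00241) was lost without the second library of that clone (0.0615). Mbd2 did not pass against clone 1 (0.71, adjusted p = 0.0609) or clone 2 (0.58, adjusted p = 0.105), and without DGCR8 KO replicate 3 it passed against both (0.0242 and 0.0415).

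A further 15 genes reported as targets of the same seed were looked up for comparison, of which 14 were tested and Dkk1 was too low. In DGCR8 KO 10 were higher and 1 lower (median log2 fold change 0.93), and in DDX6 KO 4 were higher and 2 lower (median 0.18). Over all tested genes 19.9% were higher and 16.5% lower in DGCR8 KO, and 17.9% and 16.6% in DDX6 KO. No 7- or 8-base match was found in Kdm1a, the gene lower in DGCR8 KO (-0.53), or in Rela, higher in DDX6 KO (0.50). The largest in DGCR8 KO were Lefty1, an inhibitor of Nodal signals (4.11), the transcription factor Irf2 (4.04), cyclin D2, Ccnd2 (2.92), and the Hippo kinase Lats2 (2.36). In DDX6 KO they were Irf2 (2.87), the nuclear receptor Nr2f2 (1.47), the retinoblastoma relative Rbl2 (1.23) and Lefty2, which was lower (-2.20). Irf2 and Rbl2 lie on chromosome 8, with its median of -0.45 in DGCR8 KO, and Ccnd2 on chromosome 6. Like Ei24, Lefty2 and cyclin D1 (Ccnd1), named here after their values were seen, were higher in DGCR8 KO (0.92 and 1.42) and lower in DDX6 KO (-2.20 and -0.45). In the direct comparison 10 of the 14 were higher in DGCR8 KO and 1 lower (median 0.74), against 23% and 21% of all genes. For the 8 targets described here these counts were 5 and 2. The largest of the 14 log2 differences were those of Lefty1 (4.99), Lefty2 (3.12), Ccnd2 (2.45) and Lats2 (2.16), all higher in DGCR8 KO.

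**Figure D5:**
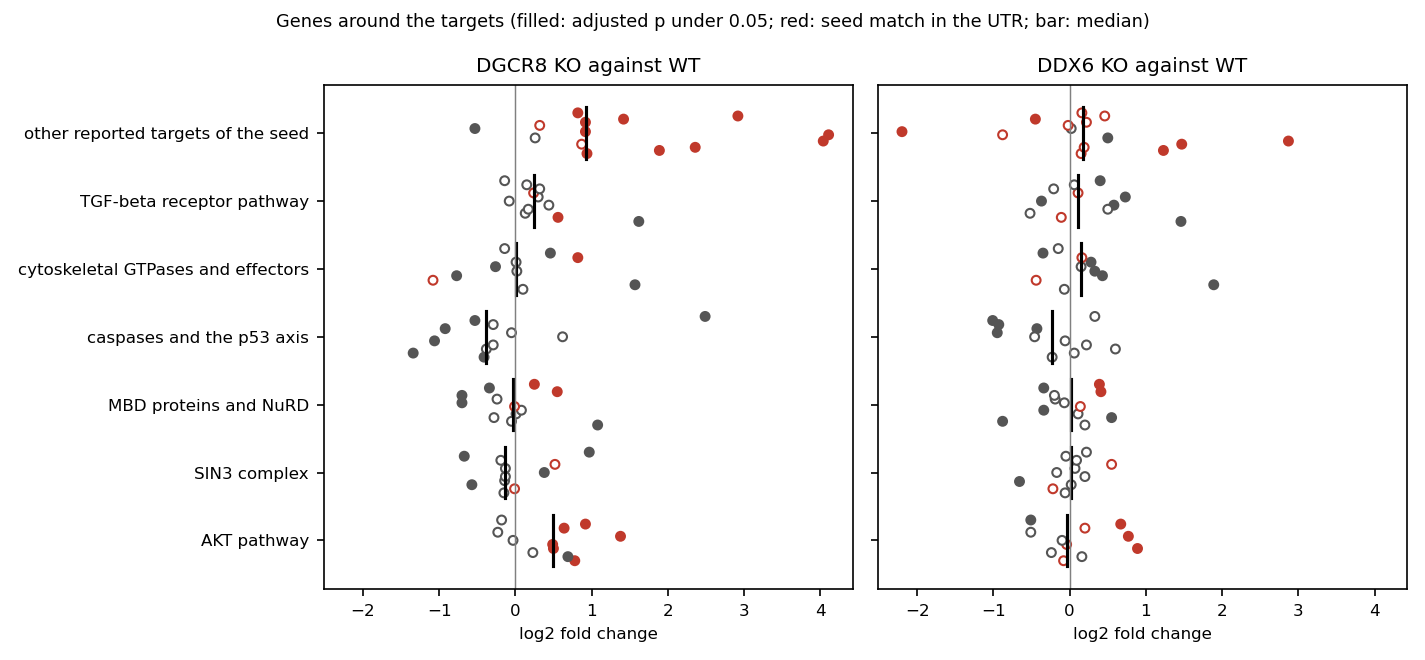
Log2 fold changes of the genes listed around the 8 targets, in DGCR8 KO and in DDX6 KO, each against WT. Each point is a tested gene, filled where the adjusted p was under 0.05 and red where the 3′ UTR has a 7- or 8-base seed match; bars are medians. The other reported targets lie to the right in DGCR8 KO (median 0.93) and around 0.18 in DDX6 KO.

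Over the 10 libraries, the tested genes whose log2 levels ran most like those of each target are given as a description, since 10 points in 3 genotypes and 11683 genes leave room for high values. For Arid4a they were Tmem87b (Pearson r = 0.995) and Tbcel (0.987), for Ei24 Tnks2 and Lima1 (0.987 each), and for Rhoc Piwil2 (0.977) and Ppp4r2 (0.966). For Casp2 they were H2-Bl (0.973) and Ap2b1 (0.965), for Tgfbr2 Epdr1 (0.971) and Extl2 (0.963), for Arid4b Acsl5 (0.958) and Trim12c (0.956), for Mbd2 Plekha7 (0.950) and Stt3b (0.918), and for Akt1 Zfyve19 (0.913) and Sec22a (0.911). Among the targets themselves, the closest pair was Arid4a and Arid4b (r = 0.933).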

How the data were processed

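The values used were the deposited counts, the whole number of uniquely mapped reads for each gene, not normalized. Per the submitters' notes and the study, the authors trimmed reads with cutadapt 1.14, aligned them to mm10 with STAR 2.5.3a and counted sense-strand exon reads with featureCounts 1.5.3. No molecular identifiers are stated. The 92 spike-in rows were set apart. Libraries were grouped by title. Genes with at least 3 CPM in 3 libraries were tested (11683). Counts were scaled by TMM (edgeR 4.0.16) and fitted with voom in limma 3.58.1 under R 4.3.3, in 1 model of 3 genotypes, or with a group per clone. Tests were two-sided, with Benjamini-Hochberg adjustment over all tested genes. A gene passed at an adjusted p under 0.05. The members, gene lists and named genes (all 8 targets, both knocked-out genes, at most 4 passing genes per list and comparison by size, and 2 nearest patterns per target) were chosen with earlier results of these data known. Deviations of same-numbered WT and DGCR8 KO libraries correlated at 0.145, 0.267 and 0.285, and the numbers were assumed to pair these groups. Same-numbered pairs of a DDX6 KO library with a WT or DGCR8 KO library ran from -0.050 to 0.171 and were not taken as paired. These ranges overlap, and libraries of unlike number were not correlated, so the pairing was not established. The main fits had no block, and the block fit applied the numbers to all groups. Seed matches used GENCODE M21 3′ UTRs. The fit was tested on simulated data. DESeq2 1.42.0, edgeR's quasi-likelihood test, other scalings and filters, left-out libraries and a replicate block were alternatives. Some genes of these lists are not reported here.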

Additional observations from a re-analysis of the deposited data

Results flagged for a closer look

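In 7 of the 8 targets the effect of the 2 knockouts differed by a direct test (limma, DGCR8 KO minus DDX6 KO, adjusted p under 0.05). Those higher in DGCR8 KO were Casp2 by 1.55, Ei24 by 1.53, Arid4a by 0.67, Mbd2 by 0.64 and Arid4b by 0.36 on the log2 scale. Rhoc, at -0.86, and Tgfbr2, at -1.35, were lower in DGCR8 KO. Tgfbr2 was tested only because of its level in DDX6 KO, and without it the difference passed in 6 of the other 7. Of all tested genes, 23% were higher and 21% lower in DGCR8 KO than in DDX6 KO. The tests of Mbd2, Arid4b and Tgfbr2 depended on single libraries or settings, as given with them above. Among the 4 DDX6 KO libraries none passed Dixon's 95% criterion for any target, the nearest being Casp2, whose first library of clone 1 (9.11 CPM, the others 14.2 to 15.7) lay apart by 0.76 of the range.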

How the results depend on the processing

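Each result was recomputed with other scalings, tests and filters, with the compared groups alone, with centred chromosomes, with a replicate block and without each library. Of the 1272 values for single targets, 1205 kept their side of the threshold, while 54 lost and 13 gained the call. No value past the test changed sign, whereas 14 values that passed in neither setting did, such as Casp2 in DDX6 KO with centred chromosomes (from 0.19 to -0.40) and in clone 1 without its first library (from -0.01 to 0.29). Counting only log2 changes beyond 1, the targets called were 3 in DGCR8 KO, 2 in DDX6 KO and 3 between the knockouts. For single clones they were 2 against WT in each, and 3 (clone 1) and 2 (clone 2) against DGCR8 KO. Tgfbr2, which entered the test through DDX6 KO, is in each of these counts except those of DGCR8 KO against WT and against clone 2. Its calls are no support. At this threshold 8.93% of all genes were higher in DGCR8 KO and 7.55% in DDX6 KO. Between the knockouts 7.77% were higher in DGCR8 KO and 9.32% lower, and the shares for single clones are given above. Leaving out single libraries gave 5 to 7 targets in DGCR8 KO, 4 to 5 in DDX6 KO, 4 to 7 between the knockouts (4 without the first library of clone 1), 2 to 4 in clone 1 (2 without its second library), 3 to 5 in clone 2, and 4 to 6 and 4 to 5 for DGCR8 KO against clones 1 and 2. With the replicate number as a block these counts were 7, 4, 6, 4, 4, 6 and 5, and between the clones 0. The shares of all genes given in this text are from the main fits. Counts under the other settings therefore have no share to be read against. For DDX6 KO, whose numbers were not taken as paired, the block took Arid4b to 0.23 (adjusted p = 0.123), and between the knockouts Tgfbr2 to -0.72 (0.203). Against clone 1 it took Tgfbr2 to -1.06 (0.0872) and Mbd2 to 0.75 (0.033), and against clone 2 Arid4b to 0.39 (0.0124). Counting 6-base matches or any coding transcript can only add seed matches, so the 8 of 8 could not fall. Leaving a clone with 1 library assumes that it varies like the other groups. Depth limited Tgfbr2 most, with 6 counts in WT.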

Other observations

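The 3 matches of 7 or 8 bases in Tgfbr2 differ in 1 respect. Around the match that lies 5016 bases after the stop codon, the middle 20 bases of the surrounding 30 were found in the 3′ UTR of 113 tested genes, Tgfbr2 included. Around each of the other matches of Tgfbr2, and around each match of Rhoc, Casp2, Ei24, Arid4a, Arid4b and Akt1, the same 20 bases were found in 1 tested gene, the target itself. Mbd2 was not examined in this way.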
